A study of Homo sapiens with 8 samples.

Results

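The 45 genes described here make and assemble ribosomes: the cores of the small nucleolar ribonucleoproteins, abundant nucleolar proteins, factors that mature the small and large ribosomal subunits, and part of the RNA polymerase I machinery. They were chosen by name, as the rows of the count table whose gene symbol was on the list, and all 45 were found among the 16082 genes of the table. The cells were KYSE150, an established human esophageal cancer line, in 4 control samples and 4 samples labelled as HNRNPC knockdown, which carried a short hairpin RNA against HNRNPC (shHNRNPC). No sample had any other treatment. HNRNPC is a nuclear protein that binds nascent transcripts and affects how they are spliced, and the study compared gene expression with and without it by sequencing poly(A) RNA. The labels do not say whether the samples of a group were cultured separately. The p-values below therefore measure only sample-to-sample spread, and that spread may be technical.

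Ribosome production begins in the nucleolus, where RNA polymerase I copies the ribosomal DNA into a long precursor RNA. Box C/D and box H/ACA particles modify that precursor at sites chosen by their guide RNAs, a large complex called the small subunit processome folds and cuts it, and separate sets of factors then mature the small and large subunits and send them to the cytoplasm. Growing cells express these genes at high levels, and the transcription factor MYC, which binds the E-box CACGTG as a dimer with MAX, is a well known activator of many of them.

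Promoter sequences are given first because a motif that the choice of genes did not use was found in 17 of the members. RefSeq promoters of GRCh38.p14, reaching from 250 bases before to 50 bases after each annotated start, were matched by gene identifier for 40 of the 45 members. BOP1, NOP58, NOLC1, RRS1 and RRP12 had no entry. The E-box CACGTG, which reads the same on both strands, was present in 17 of the 40 (42.5%), against 1251 of the 9890 tested genes with a promoter (12.6%) and 2396 of all 27305 genes in the promoter table (8.77%). Of the 20 E-boxes in these promoters, 16 began between 20 bases before and 50 bases after the start. A box in that window was found in 16 members (40%) and in 299 tested genes (3.02%), but the window was set after the positions were seen, so these shares only describe it. The windows below, 30 bases each and read 5′ to 3′ on the strand of the gene, show the E-box in capitals for 6 members that were lower in the knockdown libraries and for MRTO4 and FBL, the 2 members with an E-box that were higher:
RRP9: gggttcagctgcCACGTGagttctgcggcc
UTP18: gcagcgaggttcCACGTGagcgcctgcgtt
BYSL: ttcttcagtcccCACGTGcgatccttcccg
PES1: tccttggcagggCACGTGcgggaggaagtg
UTP4: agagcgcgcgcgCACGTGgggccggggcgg
GNL3: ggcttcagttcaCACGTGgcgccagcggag
MRTO4: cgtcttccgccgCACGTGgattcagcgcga
FBL: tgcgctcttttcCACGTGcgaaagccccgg
In the same order, the windows lie at RRP9 at chr3:51941892-51941921 (minus strand), UTP18 at chr17:51260538-51260567 (plus strand), BYSL at chr6:41921515-41921544 (plus strand), PES1 at chr22:30591880-30591909 (minus strand), UTP4 at chr16:69132621-69132650 (plus strand), GNL3 at chr3:52686026-52686055 (plus strand), MRTO4 at chr1:19251807-19251836 (plus strand) and FBL at chr19:39846356-39846385 (minus strand) of GRCh38.p14. A match describes the letters and does not show that a factor binds there.

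**Figure D1:**
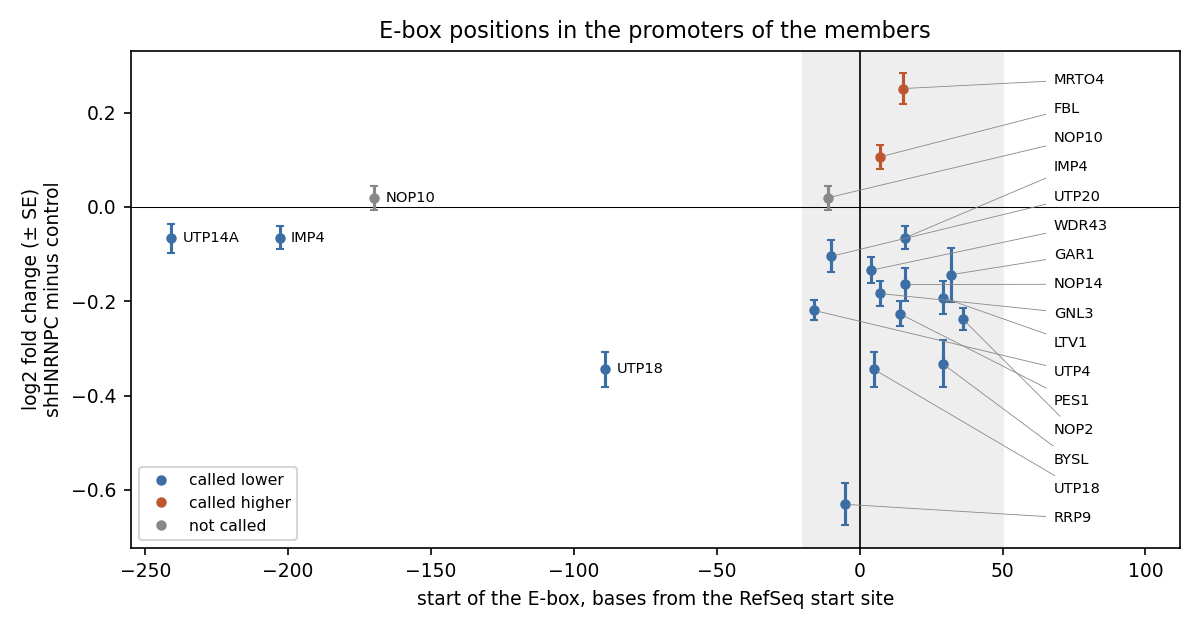
Position of each E-box in the members' promoters (x axis, bases from the RefSeq start site to the box's leading base; the grey band runs from -20 to 50) against the gene's log2 fold change, shHNRNPC minus control (y axis, bars are the standard error). Of 20 boxes, 16 lie in the grey band, and those genes spread from RRP9 at -0.63 to MRTO4 at 0.25.

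Library totals ran from 28323403 to 34913500 counts. Levels are given in CPM, a gene's counts relative to its library's total after TMM scaling, and log2 fold changes are shHNRNPC minus control throughout. HNRNPC itself fell in every knockdown library, from 571 to 601 CPM in the controls to 32.5 to 36.5 CPM, 5.78% of the control mean (log2 fold change -4.12). Of the squamous epithelial markers 10 of 11 had a mean of at least 1 CPM, with SOX2 below it, and the summed level was 1905 to 1935 CPM in the controls and 2661 to 2726 CPM in the knockdown, led by KRT5, CDH3 and CDH1. Of the 10 squamous markers tested, 4 were called higher and 5 lower, with a median log2 fold change of -0.14 and a range of -1.62 to 0.99, so the sum follows the most abundant of them. Markers of other cell types summed to 16.0 to 18 and 14.5 to 16.4 CPM, led by ACTA2, COL1A1 and VWF, and PTPRC and CD3E were not among the genes analysed. Of 8 genes used widely as references (ACTB, GAPDH, TBP, PPIA, B2M, HPRT1, PGK1 and SDHA) 7 were higher and 1 was lower, with a median log2 fold change of 0.33. The part that these levels had in the results below was not tested. In bulk RNA, fewer cells expressing a gene and less RNA per cell cannot be told apart.

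Most of the 45 genes were lower in the knockdown libraries, by small amounts. All 45 were abundant enough to be tested, with at least 304 counts in each library, and edgeR's quasi-likelihood test with Benjamini-Hochberg adjustment called 30 lower, 10 higher and 5 neither way at a threshold of 0.05. Over all 12001 genes tested the same rule called 77.3%, with 38.6% lower and 38.7% higher, so a call by itself was the usual outcome and the members' 40 calls (88.9%) are read against that background. The median log2 fold change of the members was -0.13 and that of all tested genes -0.01. The range was -0.74 to 0.25, and 29 of the 45 differed by less than 0.2 in either direction. Without shHNRNPC replicates 1 and 4, 28 of the members were called lower and 8 higher. These libraries were left out together because of how deviations from the mean correlated within the knockdown group. The values were -0.24 for replicates 1 and 4, -0.17 for replicates 2 and 3, and -0.46 to -0.34 for the other pairs. Deviations from a group's own mean sum to 0, so such correlations tend to be negative by construction. In the controls they ran from -0.36 to -0.28. Whether the knockdown samples form subgroups was not tested, and calls can also be lost because fewer libraries remain.

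Counting only larger differences, 10 members were lower by at least 1.25-fold while the largest rise was to 119% of control. Of all tested genes 23.1% were lower and 21.0% higher by at least 1.25-fold. PPAN and RRP9 were the members lower by at least 1.5-fold, and no member was higher by that much. Of all 12001 tested genes, 1470 were lower and 1153 higher by at least 1.5-fold. No member reached 2-fold in either direction. In 36 of the 45 (80.0%) the 4 control and 4 knockdown CPM values did not overlap, against 70.7% of all tested genes. Within groups the members varied little, with a median coefficient of variation of 2.51% in the controls and 2.97% in the knockdown libraries. Added together, the members' CPM were 7826 ± 109 (SD, n = 4) in the controls and 7473 ± 52.4 (SD, n = 4) in the knockdown, or 95.5% of control. Relative to the control mean, the median member was at a log2 value of -0.09, -0.13, -0.11 and -0.14 in knockdown replicates 1 to 4 and between -0.01 and 0.01 in the controls.

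**Figure D2:**
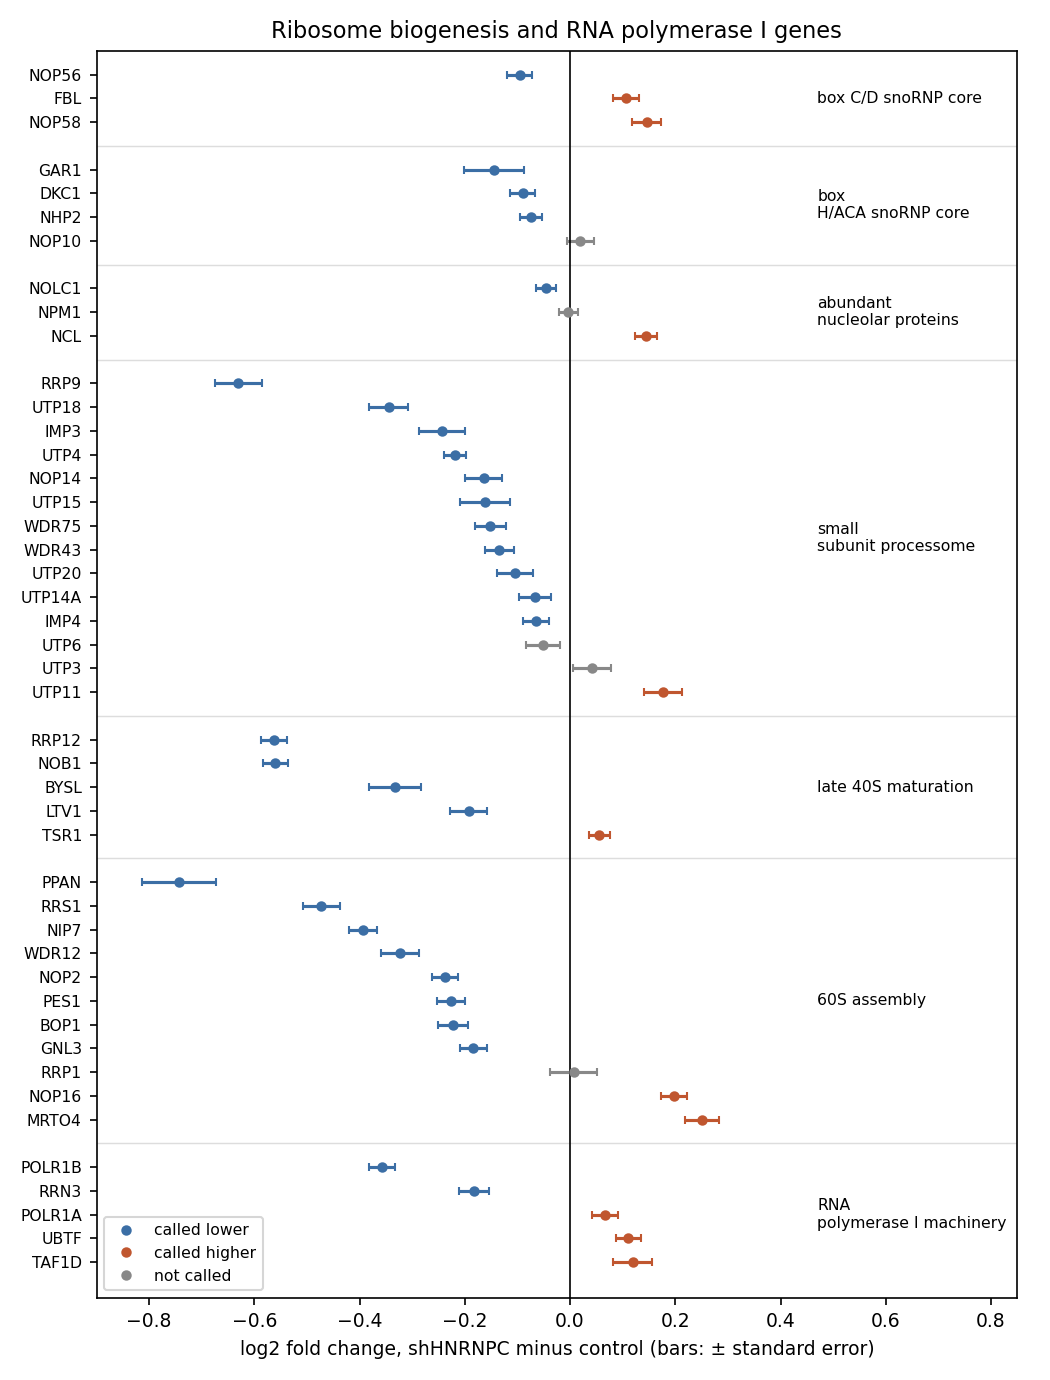
Log2 fold change, shHNRNPC minus control, of the 45 genes by role (x axis; bars are the standard error of the fit; n = 4 samples per group). Points left of 0 are lower in the knockdown libraries: 30 were called lower, 10 higher and 5 not called, and the values run from PPAN at -0.74 to MRTO4 at 0.25.

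The members' levels spanned a wide range. Per kilobase of exon in GENCODE 29, the highest mean control levels were those of NPM1 (311 CPM per kb), NOP10 (250 CPM per kb), NHP2 (203 CPM per kb) and NCL (148 CPM per kb), genes of abundant nucleolar proteins and of the box H/ACA core. The lowest were UTP15 (5.30 CPM per kb), TAF1D (6.57 CPM per kb), WDR12 (7.26 CPM per kb) and UTP20 (7.41 CPM per kb). In the gene ontology terms that the count table carries, 39 of the 45 members (86.7%) had the term nucleolus, against 6.38% of tested genes. The term rRNA processing was held by 27 members (60%), against 1.17%. These shares follow from the choice of the members by name and only describe the list.

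The members in the cores of the small nucleolar particles were close to their control levels. In the box C/D core, whose particles methylate ribose, the scaffold gene NOP58 rose from 95.4 to 99.9 CPM in the controls to 106 to 110 CPM (log2 fold change 0.15), while its paralog NOP56 had 201 to 215 CPM in the controls and 190 to 202 CPM in the knockdown, with the groups overlapping (log2 fold change -0.10, called lower). FBL, the methyltransferase of the particle, had 164 to 176 CPM in the controls and 178 to 189 CPM in the knockdown (log2 fold change 0.11, called higher). The summed level of these 3 genes was 102% of control. SNU13, a further box C/D core protein that is not among the members, is not in that sum. It was called lower, at 83.2% of control and without overlap (log2 fold change -0.26). NOP56 has a near-identical stretch in NOP56P1, with which its reads may be shared.

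In the box H/ACA core, whose particles turn uridine into pseudouridine and also belong to telomerase, 3 of 4 members were called lower and NOP10 was not called. DKC1, the pseudouridine synthase, was at 94.0% of control and NHP2 at 95% (log2 fold changes -0.09 and -0.07). NHP2 has a near-identical copy, NHP2P1, and 27.4% of its exon bases lie in exons of RMND5B, which was itself lower (log2 fold change -0.41). GAR1 had 28.9, 30.9, 26.2 and 30.7 CPM in the controls and 26.9, 23.1, 27.7 and 28.1 CPM in the knockdown, and the groups overlapped. Its call (log2 fold change -0.14, edgeR adjusted p = 0.020) was lost without control replicate 2 or 4 or shHNRNPC replicate 2 (adjusted p = 0.085, 0.080 and 0.21) and with DESeq2 (adjusted p = 0.058). NOP10, the smallest core protein, had 142, 137, 141 and 135 CPM in the controls and 139, 138, 145 and 140 CPM in the knockdown, and was not called (log2 fold change 0.02, edgeR adjusted p = 0.49).

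The 3 genes of abundant nucleolar proteins went different ways. NCL, encoding nucleolin, had 1077, 1028, 985 and 1002 CPM in the controls and 1157, 1121, 1135 and 1110 CPM in the knockdown, higher in each of the 4 knockdown libraries than in any control (log2 fold change 0.14, edgeR adjusted p = 5.2e-08). NPM1, encoding the nucleolar chaperone nucleophosmin, had 1211, 1209, 1161 and 1181 CPM in the controls and 1197, 1186, 1207 and 1162 CPM in the knockdown. The NPM1 groups overlapped and the gene was not called (log2 fold change 0.00 with a standard error of 0.018, edgeR adjusted p = 0.86). A near-identical stretch of NPM1 lies in 6 other annotated genes, among them CLEC2D. NOLC1, a chaperone of small nucleolar particles, was at 96.8% of control (log2 fold change -0.05, edgeR adjusted p = 0.023). That call was lost when control replicate 1 or any of the 4 shHNRNPC replicates was left out (adjusted p = 0.051 to 0.062). It was also lost without shHNRNPC replicates 1 and 4 together (adjusted p = 0.10).

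The small subunit processome genes were mostly lower. Of 14 members 11 were called lower, 1 higher and 2 neither way, with a median log2 fold change of -0.14 and a summed level of 90.7% of control. RRP9, a protein specific to the U3 particle of the processome, had the largest difference. It had 49.2, 47.5, 47.4 and 48.1 CPM in the controls and 29.9, 30.0, 33.7 and 30.5 CPM in the knockdown. The RRP9 groups were far apart, with the knockdown mean at 64.5% of control (log2 fold change -0.63, standard error 0.044, edgeR adjusted p = 2.5e-20). UTP18, a subunit of the UTP-B complex, followed at 78.8% of control, from 64.9 to 70.6 CPM to 51.3 to 57.3 CPM (log2 fold change -0.34). The 4 members listed here that belong to the UTP-A complex, which joins the precursor early, were all called lower. Their log2 fold changes were -0.22 for UTP4, -0.16 for UTP15, -0.15 for WDR75 and -0.13 for WDR43. Among UTP-A subunits outside the members, HEATR1 was called lower (log2 fold change -0.24) and NOL11 was called higher (0.81). HEATR1 shares 23.2% of its exon bases with other genes.

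Among the other processome members, IMP3, which acts in a complex with IMP4, was at 84.5% of control (log2 fold change -0.24). However, 59.3% of IMP3 exon bases lie in exons of other genes, among them SNX33, which was lower by more (log2 fold change -0.45); without a stated strand setting the reads of overlapping genes cannot be told apart. IMP4 was at 95.7% of control with overlapping groups, and its call (edgeR adjusted p = 0.016) was lost without shHNRNPC replicate 2 or 3 (adjusted p = 0.10 and 0.11). NOP14, needed to form the early small subunit particle, and UTP20, a large scaffold protein, had log2 fold changes of -0.16 and -0.10. The UTP20 groups overlapped. UTP14A, which activates the helicase that releases U3, had the least secure call (log2 fold change -0.07, edgeR adjusted p = 0.044). It was lost without control replicate 1, 2 or 3, or shHNRNPC replicate 2, 3 or 4 (adjusted p = 0.067 to 0.19), and in 4 other alternatives.

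UTP11 was the processome member that rose. It had 58.7, 60.2, 58.9 and 64.0 CPM in the controls and 64.8, 69.8, 69.9 and 68.4 CPM in the knockdown, with no overlap (log2 fold change 0.18, edgeR adjusted p = 1.1e-05). UTP3 and UTP6, a UTP-B subunit, were not called. UTP3 had 61.0, 59.3, 57.0 and 58.0 CPM in the controls and 58.4, 61.4, 62.8 and 59.4 CPM in the knockdown (log2 fold change 0.04, edgeR adjusted p = 0.29). UTP6 had 74.3, 79.9, 76.3 and 78.5 CPM in the controls and 73.7, 73.6, 75.5 and 75.5 CPM in the knockdown (log2 fold change -0.05, edgeR adjusted p = 0.14), and was called lower when libraries were scaled by totals alone or by upper quartiles (adjusted p = 0.037 and 0.026). In both genes the groups overlapped.

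The 5 late factors of the small subunit had the lowest summed level relative to control of the 7 roles, 84.1%, with 4 called lower and 1 higher and a median log2 fold change of -0.33. RRP12, which takes part in nuclear export of the particle, had 217, 213, 217 and 205 CPM in the controls and 140, 140, 147 and 150 CPM in the knockdown. NOB1, the nuclease that makes the last cut in the small subunit RNA, had 225, 215, 216 and 215 CPM in the controls and 141, 150, 151 and 148 CPM in the knockdown. Each fell to about the same degree, RRP12 to 67.7% and NOB1 to 67.8% of control, and in neither did any knockdown library reach the lowest control (log2 fold change -0.56 each; edgeR adjusted p = 4.2e-30 and 9.9e-31). BYSL, which binds the particle together with RRP12 and LTV1, was at 79.4% of control, and LTV1 at 87.6%, with 34.8% of its exon bases shared with other genes. TSR1, a GTPase-like factor of the late particle, was at 104% of control, and 20.8% of its exon bases lie in exons of SGSM2, which was called lower (log2 fold change -0.10), and SRR; its call as higher (edgeR adjusted p = 0.0082) was lost under both other scalings, library totals and upper quartiles (adjusted p = 0.096 and 0.17), and without shHNRNPC replicates 1 and 4 (adjusted p = 0.054). NOB1 shares 20.2% of its exon bases with a noncoding gene and has a near-identical copy, AC098859.1.

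Of the 11 large subunit factors 8 were called lower, 2 higher and 1 neither way, with a median log2 fold change of -0.23 and a summed level of 88.5% of control. PPAN, a factor of early large subunit particles, had the largest fall of all 45 genes and the lowest counts: 18.3, 19.1, 20.3 and 19.6 CPM in the controls and 10.8, 11.9, 10.9 and 12.6 CPM in the knockdown. The PPAN groups were separate, with the knockdown mean at 59.7% of control (log2 fold change -0.74, standard error 0.071, edgeR adjusted p = 8.7e-15). In the annotation 59.8% of PPAN exon bases are shared with P2RY11 or the read-through gene PPAN-P2RY11, so its value is uncertain. RRS1, which helps to bring the 5S particle to the precursor, had 83.4, 87.5, 78.7 and 81.6 CPM in the controls and 59.2, 59.7, 63.6 and 56.1 CPM in the knockdown, again without overlap (log2 fold change -0.47, standard error 0.036, edgeR adjusted p = 2.3e-18).

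NIP7, another factor of large subunit particles, was at 76.1% of control (log2 fold change -0.39); 20.2% of its exon bases lie in exons of COG8, which had a log2 fold change of -0.17. PES1, BOP1 and WDR12 form the PeBoW complex, which is needed to process the large subunit RNA, and all were called lower, at 85.5%, 85.7% and 79.9% of control. NOP2, an RNA cytosine methyltransferase that shares 54.4% of its exon bases with a noncoding gene, and GNL3, the GTPase nucleostemin, were at 84.9% and 88.1% of control. Going the other way, MRTO4, a relative of the ribosomal stalk protein that holds its place during assembly, rose from 64.7 to 66.2 CPM to 76.5 to 79.7 CPM, 119% of control and the largest rise among the members (log2 fold change 0.25, edgeR adjusted p = 2.9e-10). NOP16, an early large subunit factor, rose from 136 to 140 CPM to 153 to 162 CPM (log2 fold change 0.20). RRP1, a nucleolar factor of the large subunit, had 42.7, 42.0, 38.0 and 41.9 CPM in the controls and 39.5, 40.1, 42.6 and 43.2 CPM in the knockdown, and was not called (log2 fold change 0.01, edgeR adjusted p = 0.90).

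**Figure D3:**
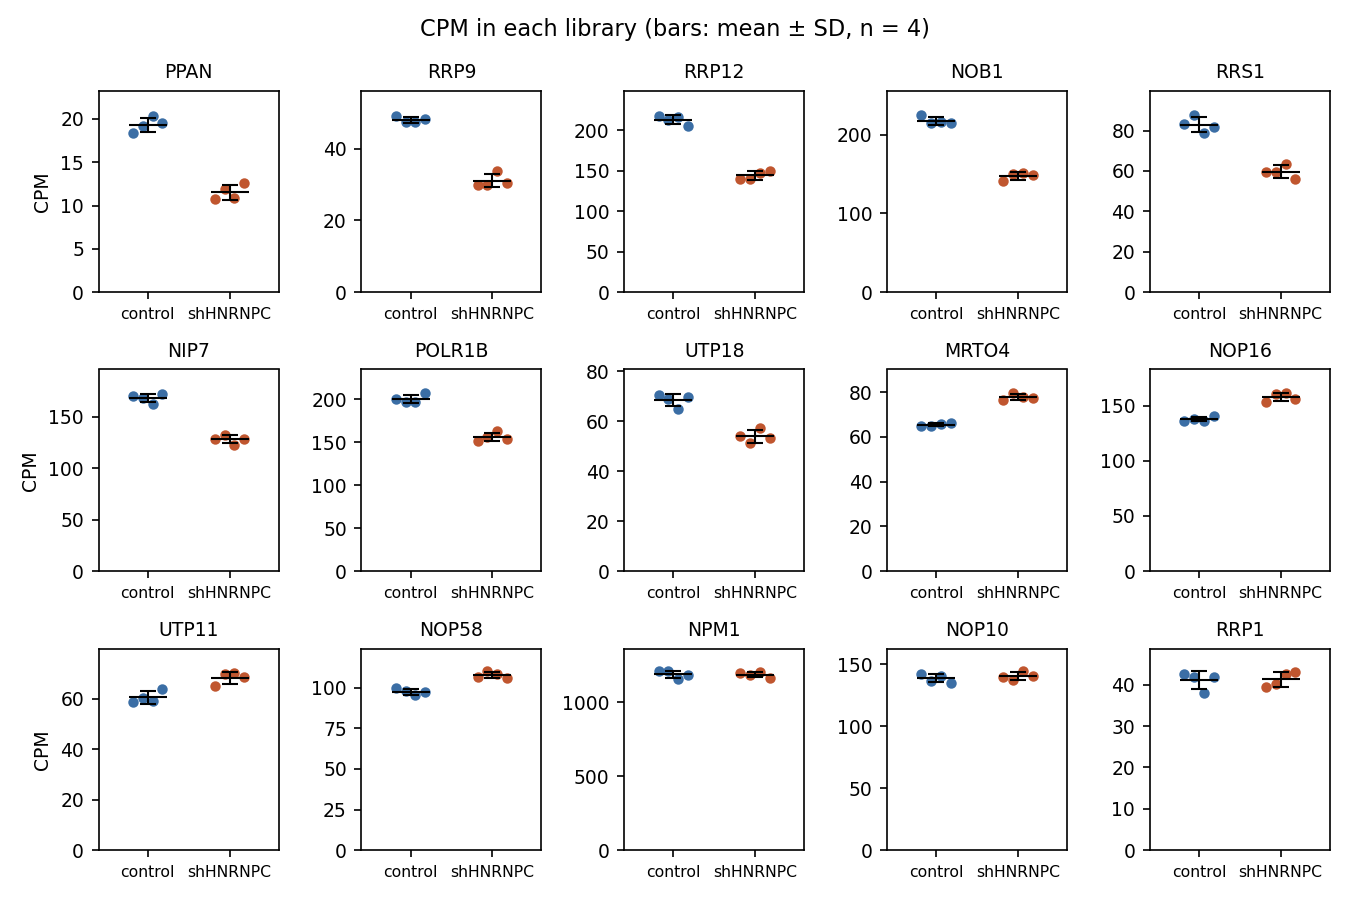
CPM in each library (y axes from 0) of 15 members, with the 4 control samples in blue and the 4 shHNRNPC samples in orange; the long bar is the mean and the short bars are ± SD. The groups are separate in PPAN, RRP9, RRP12, NOB1 and RRS1, which have the largest falls, and in MRTO4 and NOP16, which rose, and they overlap in NPM1, NOP10 and RRP1.

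The RNA polymerase I machinery split. POLR1B, its second largest subunit, fell from 197 to 207 CPM in the controls to 151 to 163 CPM in the knockdown, 78.0% of control (log2 fold change -0.36, edgeR adjusted p = 8.0e-21). POLR1A, the largest subunit and catalytic partner of POLR1B, was at a mean of 159 CPM against 152 CPM, with 150 to 155 CPM in the controls and 156 to 163 CPM in the knockdown; its call as higher (log2 fold change 0.07, edgeR adjusted p = 0.012) was lost when libraries were scaled by totals or upper quartiles (adjusted p = 0.089 and 0.13) and without shHNRNPC replicates 1 and 4 (adjusted p = 0.18). UBTF, which bends the ribosomal DNA promoter, and TAF1D, a subunit of the promoter selectivity factor, were called higher at 108% and 109% of control. RRN3, which links the polymerase to that factor, was called lower at 88.1% of control. A near-identical stretch of RRN3 lies in 5 other annotated genes, among them CDR2. In all, 3 of these 5 genes were called higher and 2 lower.

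Ratios between partners within a library do not depend on how the libraries are scaled. Of 20 pairs of members in the same complex, the log2 ratio of counts did not overlap between the groups in 8 and overlapped in 12. No test was made on these ratios. The same count for pairs of other genes is not given here, so 8 of 20 is not read as many or few. POLR1A over POLR1B changed most, from -0.42 to -0.38 in the controls to -0.07 to 0.10 in the knockdown, a shift of 0.42 against a pooled SD of 0.055. NOP56 shifted against both its partners, by -0.24 against NOP58 and by -0.20 against FBL. PES1 and BOP1 kept their ratio within the spread (shift 0.00, pooled SD 0.075), while the ratio of each of them to WDR12 shifted by 0.10. Among the members that belong to the UTP-A complex, 5 of 6 ratios overlapped, and UTP4 over WDR75 shifted by -0.07. The UTP-A subunits HEATR1 and NOL11 are not members and were not in these ratios.

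**Figure D4:**
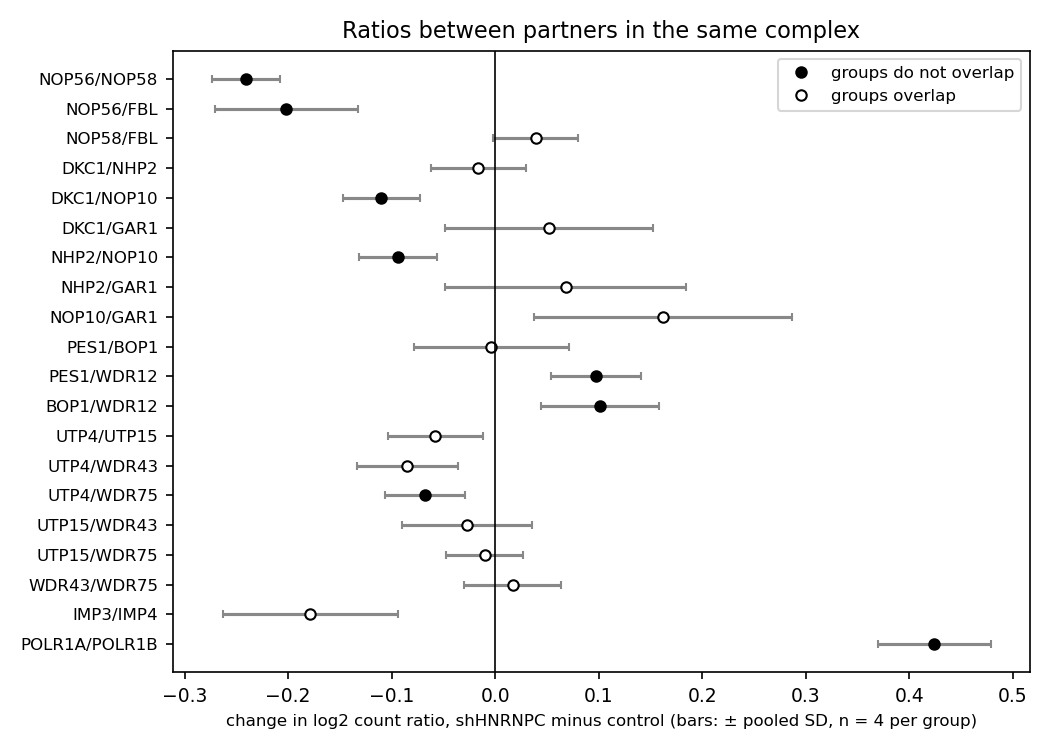
Shift of the log2 count ratio between partners of the same complex, shHNRNPC minus control (x axis; bars are ± the pooled SD over samples, n = 4 per group). Filled points mark the 8 pairs whose groups do not overlap; POLR1A/POLR1B at 0.42 lies farthest from 0 and PES1/BOP1 lies at 0.00.

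Other genes of the same pathway, listed by role alongside the members, also leaned lower. Of 114 such genes 63 were called lower, 27 higher and 24 neither way, with a median log2 fold change of -0.14 and a summed level of 88.9% of control. Among 11 other RNA polymerase I genes 8 were lower and 1 higher (median -0.25). The polymerase stalk subunit POLR1F fell to 54.3% of control (log2 fold change -0.88) and POLR1C, shared with RNA polymerase III, to 78.5%. TAF1B, of the promoter selectivity factor, fell to 79.7% and POLR1H, a small polymerase subunit, to 82.9%. POLR1H shares 24.5% of its exon bases with other genes. Of 39 other small subunit genes 22 were lower and 9 higher (median -0.14). WDR36, a UTP-B subunit, fell to 54.8% of control, PDCD11, a scaffold of both subunits' precursors, to 62.8% and RIOK1, a kinase of the late small subunit, to 66.8%, while NOL11, a UTP-A subunit, rose to 175% of control (log2 fold change 0.81).

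Of 53 other large subunit genes 31 were lower and 12 higher (median -0.19). RPF1 fell most, to 48.5% of control (log2 fold change -1.04), followed by NIFK, which also binds the mitotic chromosome protein Ki-67, at 50.3%, NOP53 at 57.8% and the GTPase GTPBP4 at 61.0%. The 11 genes that assemble small nucleolar particles had more calls higher than lower, with 5 higher, 2 lower and 4 neither way (median 0.06) and a summed level of 107% of control. RPAP3 and PIH1D1, of the R2TP chaperone complex, rose to 125% and 123% of control, while NOPCHAP1, a chaperone of NOP58, and NUFIP1, a box C/D assembly factor, fell to 67.8% and 77.9%.

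**Figure D5:**
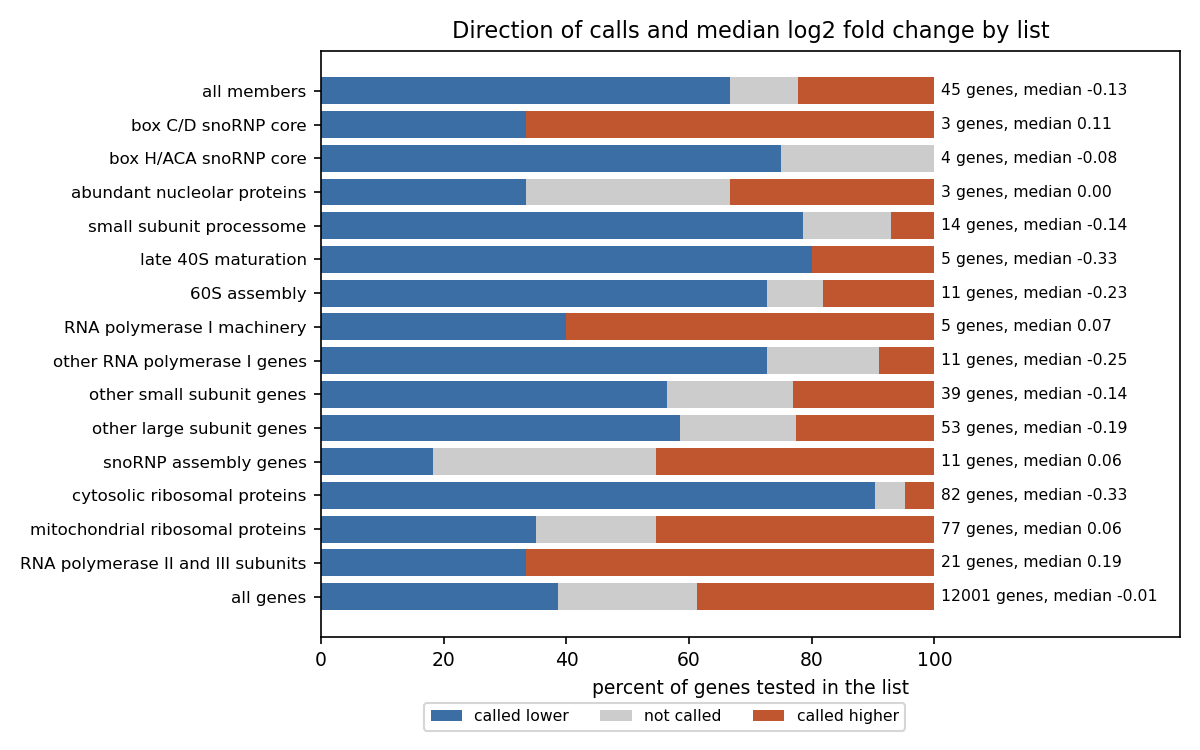
Percent of the tested genes of each list called lower (blue), not called (grey) and called higher (orange) in shHNRNPC against control; the text at the right gives the number of genes and the median log2 fold change. Cytosolic ribosomal protein genes are the most one-sided (74 of 82 lower), and all 12001 genes divide almost evenly.

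Set beside lists that are not part of the pathway's assembly machinery, the members lay between extremes. The cytosolic ribosomal proteins, which they assemble, were taken by gene symbol, and that pattern also admits paralogs with similar symbols. Of these, 74 of 82 tested genes were lower and 4 higher (median log2 fold change -0.33, range -0.77 to 1.54). Mitochondrial ribosomal proteins, made for a separate ribosome, were higher in 35 and lower in 27 of 77 (median 0.06). Subunits of RNA polymerases II and III were higher in 14 and lower in 7 of 21 (median 0.19). That last list includes the subunits that RNA polymerase I shares with them, so it is not separate from the RNA polymerase I machinery. The differences between lists were not tested.

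MYC was lower in the knockdown libraries, with 46.3, 43.6, 46.5 and 43.4 CPM in the controls and 26.3, 26.6, 27.8 and 26.1 CPM in the knockdown. The MYC groups were separate, with the knockdown mean at 59.3% of control (log2 fold change -0.75, edgeR adjusted p = 2.9e-23). Its partner MAX was at 86.0% of control, and the other dimer partners and competitors MXI1, MNT, MXD4, MXD1 and MGA were also called lower, with log2 fold changes of -0.60, -0.52, -0.44, -0.25 and -0.20, while MXD3 was called higher (0.22). MYCL was called lower with overlapping groups (-0.21).

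The direction of the members with and without an E-box is given here as counts, and the difference between them was not tested. Of the 17 with a box anywhere in the promoter, 14 were called lower, 2 higher and 1, NOP10, neither way (median log2 fold change -0.16). Of the 23 without, 12 were lower and 7 higher (median -0.07). Among all tested genes, 40.4% of those with a box anywhere in the promoter were called lower, against 38.3% of those without one (median log2 fold changes -0.02 and 0.00). For the window near the start, which was set on the members, the share was 45.2%. Of the 5 members that differed by 0.4 or more on the log2 scale, RRP9 carried a box, NOB1 and PPAN did not, and RRP12 and RRS1 had no promoter entry. Among smaller falls, UTP18 (-0.34) and BYSL (-0.33) carried one, while NIP7 (-0.39), POLR1B (-0.36) and WDR12 (-0.32) had a promoter entry without one. In the 97 other pathway genes with a promoter, which played no part in setting the window, 26 (26.8%) had an E-box and 17 (17.5%) had it near the start, 10 of them called lower and 3 higher. Their median log2 fold change was -0.19 and that of the remaining genes with a promoter -0.14, and of all 114 other pathway genes 55.3% were called lower.

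Other motifs were searched on both strands of the same promoters. The ETS motif CCGGAAG was in 15 of 40 members (37.5%) against 23.1% of tested genes, TCGCGA, part of the ZBTB33 motif, in 8 (20%) against 7.23%, and GCATGCG, part of the NRF1 motif, in 3 (7.5%) against 7.68%. The median GC content was 63.2% in the members' promoters and 64.7% in those of tested genes.

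Several members also carry small nucleolar RNA genes within their bounds and on the same strand. The same transcript may thus feed the pathway with guide RNAs, which poly(A) counts do not measure. In GENCODE 29, 9 members held at least 1: TAF1D held 8, NOP56 and GNL3 5 each, NOP58 4, NCL and WDR43 3 each, and DKC1, TSR1 and PPAN 2 each. Of these hosts 5 were called lower and 4 higher (median log2 fold change -0.09), and the other members had a median of -0.16. Some members have a near-identical copy or stretch in another gene, or share over 20% of their exon bases with one. Without these, 34 remained, of which 21 were lower and 9 higher (median log2 fold change -0.10).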

How the data were processed

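Poly(A) RNA of 8 KYSE150 samples was sequenced as paired-end reads, per the labels' protocols. Per the series design text, fastp removed low-quality reads. Per the submitters' processing notes, the genome build was hg38. Not given in the sources used here were the aligner, the counter, the annotation and the strand setting. The authors deposited raw read counts per gene, not normalised, 1 column per sample. Counts were kept with edgeR's filterByExpr (minimum count 10, minimum total 15), scaled by TMM factors and tested between groups with the quasi-likelihood F test, adjusted by Benjamini and Hochberg's method across the 12001 genes that passed, at a threshold of 0.05 (R 4.3.3, edgeR 4.0.16). Standard errors are the size of the log2 fold change over the square root of F. DESeq2 1.42.0, other scalings and filters, a replicate block and leaving out libraries were alternatives. Promoters and positions came from RefSeq, and exons and small nucleolar RNA genes from GENCODE 29. Near-identical copies and stretches came from blastn 2.17.0. They were matches of a member's coding sequence to another gene's transcript, with at least 95% identity over at least 200 bases. Tests were checked on simulated counts, where 41 of 50 genes changed 1.25-fold were recovered and 9 of 11801 unchanged genes were called. The simulation gave all genes the same dispersion and left most unchanged, which differs from these data, so these rates need not hold here. No library repeated another, with a chi-square of 2.66 to 3.70 per degree of freedom for libraries of the same group. The members and gene lists were chosen with earlier results of these data known. Per-sample values are given for called members that differed by 0.4 or more on the log2 scale and for members not called; those of GAR1, NCL and UTP11 were added after their values were seen. Correlations between members over samples are not given, since the samples form 2 clusters. From each other pathway list up to 4 genes with the largest change and at least 5 CPM were named. SNU13 and HEATR1 were added after their values were seen, as further parts of the box C/D core and the UTP-A complex. Some genes of the lists are not reported here.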

Additional observations from a re-analysis of the deposited data

Results flagged for a closer look

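In 5 of 92 groups of 4 samples, 1 library lay far from the other 3, relative to the range of the group; chance alone marks about 1 in 20 groups, or 4.6 here. NOLC1 was lowest in shHNRNPC replicate 3 (414 CPM, the others 416 to 417). WDR75 was highest in shHNRNPC replicate 1 (94.3 CPM, the others 88.5 to 89.3). RRP9 was highest in shHNRNPC replicate 3 (33.7 CPM, the others 29.9 to 30.5). NOB1 was highest in control replicate 1 (225 CPM, the others 215 to 216). RRP1 was lowest in control replicate 3 (38.0 CPM, the others 41.9 to 42.7). RRP9, NOB1 and WDR75 were called lower in each of the 15 alternatives, those without these libraries included, and RRP1 was called in none; NOLC1 lost its call in 6.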

How the results depend on the processing

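Over 15 alternatives, 34 of the 40 called members kept direction and call (26 lower, 8 higher), no member reversed, and the calls of GAR1, NOLC1, UTP14A, IMP4, TSR1 and POLR1A were lost in at least 1. The number of members called higher ranged from 8 to 10 and the number of members called lower from 26 to 31. The median log2 fold change of the members was -0.16 with library totals only and -0.16 with upper-quartile factors, and -0.15 to -0.11 with 1 library left out. Same-numbered control and knockdown samples did not deviate together (correlations -0.06 to 0.02, against -0.06 to 0.05 for other pairs), so the numbers are not taken as pairs; 1 of 4 knockdown samples correlated best with its own number. With a replicate block, 10 members were called higher and 29 lower, with a median log2 fold change of the members of -0.13. The partner ratios changed under none of their alternatives by more than their spread.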
